A study of Mus musculus with 6 samples.

Results

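Polycomb, MLL and histone methylation regulators are the enzymes, partner subunits and readers that write, erase or recognise methyl groups on histone tails. They were followed in a mouse model of acute myeloid leukaemia that depends on MLL-AF9, an oncogenic fusion of the KMT2A (MLL) and MLLT3 (AF9) proteins. The genes were taken by symbol from a fixed list of 47, and 46 had a row with exactly 1 gene symbol among the 30142 genes named on the array. Suv39h1 had no such row, so its expression is not analysed here. Each of the 46 had 1 row, none shared its values with another gene, and all had a mean above the median gene of 4.79.

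RNA came from 3 control arrays and 3 Dnmt3b-KO arrays. Both groups carried MLL-AF9 and were sorted leukaemia cells harvested from recipient bone marrow when disease had reached its end stage; the controls are labelled littermate. DNMT3B, the protein lost in the knockout, is one of the enzymes that methylate CpG dinucleotides de novo. The deleted exons, the way of deletion, the sorting markers, and the strain, sex and age of the mice are not given in the sources used here, nor whether each array is a separate mouse. If it is not, p-values reflect only how these 6 samples vary, and that variation may be technical.

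Values are on the authors' log2 scale, which reaches 19.59 and so exceeds the log2 of a scanner's 16-bit range. Differences are therefore given in log2 units as deposited and not as folds. Dnmt3b itself measured 6.76, 6.83 and 6.78 on the control arrays and 6.47, 6.63 and 5.96 on the Dnmt3b-KO arrays, in order of replicate number here and for every gene. The groups did not overlap, yet the difference was not past the threshold in limma, at -0.24 ± 0.07 (SE; adjusted p = 0.16) over the 5 arrays without Dnmt3b-KO replicate 3 and -0.44 ± 0.17 (adjusted p = 0.78) over all 6. The row need not cover the deleted exons, so it checks the labels weakly. Of 10 myeloid progenitor markers, 9 had a mean above the median gene, with Mpo at 16.54 to 17.49 and Elane at 17.42 to 18.09, whereas Flt3 was below it. Cd34 was the 1 marker of this list to pass the threshold over 5 arrays: it measured 9.41, 9.68 and 9.68 in control and 8.81, 8.35 and 6.84 in Dnmt3b-KO, a fall of -1.01 ± 0.15 (limma, adjusted p = 0.038), and over 6 arrays -1.59 ± 0.50 (0.71). Dnmt3b-KO replicate 3 stood apart: its correlation with each other array, taken across genes, was 0.981 to 0.982, whereas those 5 reached 0.998 to 0.999 with one another. Its labels are those of the other Dnmt3b-KO arrays, whether they hold for it was not tested, and every 6-array value rests on them. Genes described array by array are therefore given over 6 arrays and over the 5 arrays without it, and the remaining ones over 5 arrays with their deviation on replicate 3.

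As background, Polycomb complex PRC2 methylates lysine 27 of histone H3 and PRC1 ubiquitinates histone H2A, and together they keep developmental genes silent. The MLL and SET1 complexes oppose them by methylating lysine 4 of histone H3 at promoters and enhancers. In leukaemia with an MLL fusion, the fusion protein needs menin (Men1) to reach its targets and recruits DOT1L, which methylates lysine 79 of histone H3, together with transcription elongation factors. Histone and DNA methylation are also linked: DNMT3B carries a PWWP domain that reads methylated lysine 36 of histone H3, the product of SETD2.

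The promoters of these regulators are mostly rich in CpG, the dinucleotide on which DNMT3B acts. RefSeq windows from 250 bases before to 50 bases after the annotated start (build GRCm38.p6) were matched by symbol for 40 of the 47 genes. The outermost start was taken where there were several, and the 40 include Suv39h1. The CpG dinucleotide, letters CG, reads the same on both strands. In these windows it occurred a median of 29 times, with a range of 0 (Kdm4c) to 56, against a median of 7 over the windows of 27025 genes. A count of 10 or more was found in 38 of the 40 windows (95%) and in 44.0% of all windows. The regulators measured on the arrays were all above the median gene, and no share was taken among windows of such genes. Richness in CpG therefore need not be particular to these regulators. Shown here are the windows of Men1, Kmt2a, Jmjd1c and Dot1l, the 4 regulators with an unadjusted p under 0.05 over 6 arrays, all lower in Dnmt3b-KO. Capitals mark CpG. DNA methylation was not measured, so the windows describe sequence only.
Men1, chr19:6334729-6335028, plus strand: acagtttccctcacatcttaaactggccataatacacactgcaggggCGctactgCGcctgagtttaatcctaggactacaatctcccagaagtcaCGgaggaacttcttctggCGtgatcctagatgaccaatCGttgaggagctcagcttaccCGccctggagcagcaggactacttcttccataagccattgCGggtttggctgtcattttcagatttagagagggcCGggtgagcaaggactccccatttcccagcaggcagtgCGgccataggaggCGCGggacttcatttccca
Kmt2a, chr9:44881240-44881539, minus strand: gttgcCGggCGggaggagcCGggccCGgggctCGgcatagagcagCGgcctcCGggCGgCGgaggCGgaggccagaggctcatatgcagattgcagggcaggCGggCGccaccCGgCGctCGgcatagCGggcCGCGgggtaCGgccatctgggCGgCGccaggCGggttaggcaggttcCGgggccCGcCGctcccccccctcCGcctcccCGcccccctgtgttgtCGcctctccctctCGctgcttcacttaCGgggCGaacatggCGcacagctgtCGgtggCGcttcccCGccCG
Jmjd1c, chr10:67126838-67127137, plus strand: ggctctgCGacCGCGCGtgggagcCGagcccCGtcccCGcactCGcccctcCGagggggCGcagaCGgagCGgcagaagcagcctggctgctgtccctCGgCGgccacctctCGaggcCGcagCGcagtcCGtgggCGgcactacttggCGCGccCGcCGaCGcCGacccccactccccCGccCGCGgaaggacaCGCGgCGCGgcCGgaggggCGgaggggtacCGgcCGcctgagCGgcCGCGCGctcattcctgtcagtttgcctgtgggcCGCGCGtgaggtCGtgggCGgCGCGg
Dot1l, chr10:80754953-80755252, plus strand: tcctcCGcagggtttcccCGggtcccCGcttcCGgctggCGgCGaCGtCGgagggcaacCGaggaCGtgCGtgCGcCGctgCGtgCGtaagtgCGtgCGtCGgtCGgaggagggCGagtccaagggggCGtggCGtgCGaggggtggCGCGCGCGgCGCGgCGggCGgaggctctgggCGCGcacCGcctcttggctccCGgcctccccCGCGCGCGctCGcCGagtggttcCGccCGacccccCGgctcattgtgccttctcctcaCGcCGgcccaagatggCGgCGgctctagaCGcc
CG occurs 11 times in the Men1 window, a count reached by 42.0% of all windows, and 36 times in that of Kmt2a (6.03%). The Jmjd1c window holds it 47 times (1.39%) and the Dot1l window 49 times (1.00%). Among these 4 the window with fewest CpG is that of Men1, the regulator with the largest difference over 5 arrays. Whether the CpG count goes with the difference was not tested.

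Histone methylation regulators as a group differed little between Dnmt3b-KO and control. Over 5 arrays, 0 of 46 passed the threshold of an adjusted p of 0.05 (limma), against 1.69% of all genes (0.939% higher and 0.75% lower), and 8 of 46 had an unadjusted p under 0.05 (17.4%, against 15.5% of all genes). An adjusted p under 0.1 was reached by 2 of 46, Men1 and Kmt2a (4.35%, against 3.81%). Over 6 arrays, 0 of 46 and 0.0% of all genes passed, and 4 of 46 had an unadjusted p under 0.05 (8.70%, against 6.37%). The differences of Dnmt3b-KO replicates 1 and 2 from control ran from -0.39 (Men1) to 0.18 (Kdm4a), with 26 below 0 (56.5%, against 53.7% of all genes) and 20 above, and a median of -0.039 against -0.0096 over all genes. The 95% interval lay within 0.5 of 0 on both sides for 45 of the 46, the exception being Men1. With all 6 arrays, where replicate 3 enters each Dnmt3b-KO mean, the median difference was -0.12. It was -0.050 over genes above the median gene, where all 46 lie, and -0.0036 over all genes. Of the 46, 35 were below 0 (76.1%, against 51.2% of all genes). That share was not taken among genes above the median gene. Of the 46 intervals, 26 stayed within 0.5 of 0. A p above the threshold does not show that a gene is equal in both groups, and the intervals give the differences still allowed.

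**Figure D1:**
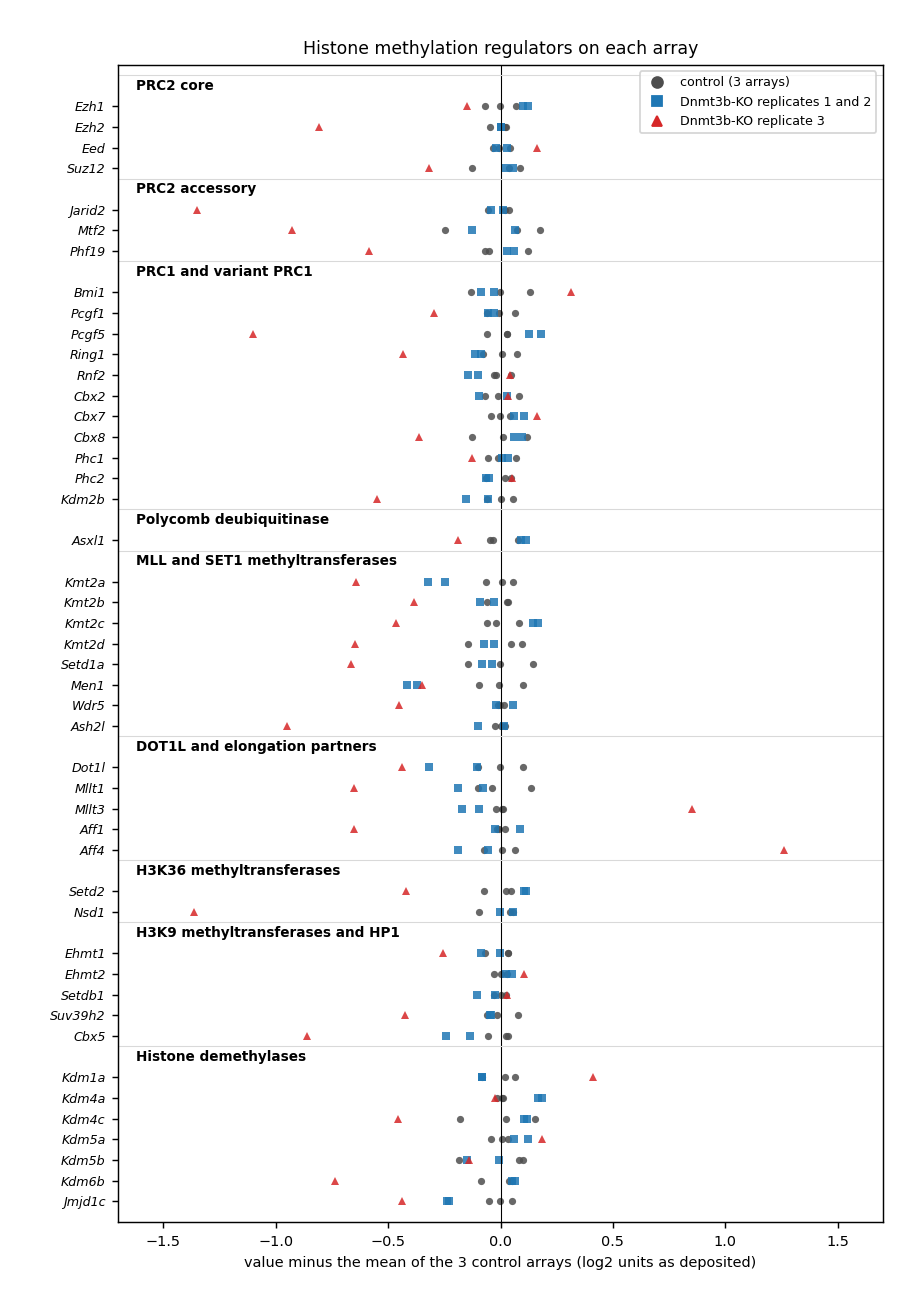
Value of each of the 46 regulators on each array minus the mean of its 3 control arrays (x axis, log2 units as deposited), grouped by role. Controls are grey circles, Dnmt3b-KO replicates 1 and 2 blue squares and replicate 3 red triangles; squares stay close to the circles for most genes, while triangles lie below every control for 33 of 46.

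**Figure D2:**
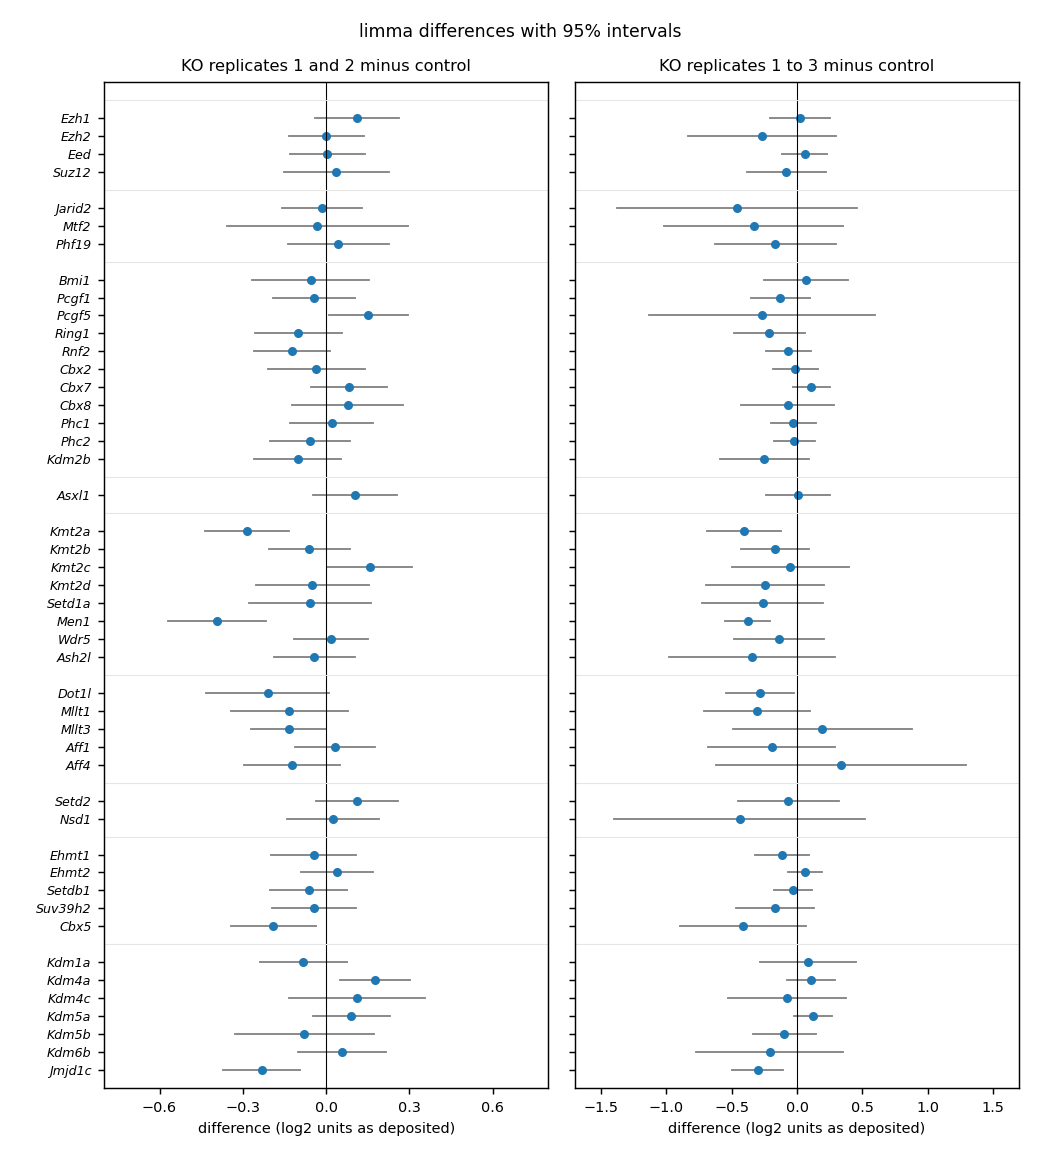
Difference of Dnmt3b-KO from control (points, log2 units as deposited) with its 95% interval from limma (lines), for Dnmt3b-KO replicates 1 and 2 (left) and for all 3 Dnmt3b-KO arrays (right, wider x axis). On the left, 45 of the 46 intervals lie within 0.5 of 0; on the right, with replicate 3 in the group, they are wider for every regulator but Cbx2, Men1 and Kdm5b.

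The MLL and SET1 methyltransferases held the members nearest to the threshold. Men1, which encodes menin, the adaptor that tethers KMT2A, KMT2B and MLL fusion proteins to chromatin, measured 7.82, 7.63 and 7.71 in control and 7.31, 7.35 and 7.37 in Dnmt3b-KO. All 3 Dnmt3b-KO arrays lay below all controls, and replicate 3, which departed for many genes, was within 0.05 of the mean of replicates 1 and 2 for this one. The difference was -0.39 ± 0.07 (SE; limma, adjusted p = 0.066; 95% interval -0.57 to -0.22) over 5 arrays and -0.38 ± 0.07 (adjusted p = 0.57) over 6. Men1 did not pass at the chosen threshold, but it did over 5 arrays among genes above the median gene (adjusted p = 0.031), where 6.66% of genes passed, and after repeated quantile normalization (0.048). The share of all genes that passed after that normalization is not given here. Over the alternatives run on 5 arrays the adjusted p of Men1 ran from 0.031 to 0.30 and its difference from -0.44 to -0.34.

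Kmt2a, the methyltransferase whose N-terminal part forms the fusion, measured 10.83, 10.71 and 10.78 in control and 10.45, 10.53 and 10.13 in Dnmt3b-KO. The groups did not overlap, and replicate 3 was the lowest array. Its difference was -0.28 ± 0.06 (SE; limma, adjusted p = 0.099; 95% interval -0.44 to -0.13) over 5 arrays and -0.40 ± 0.12 (adjusted p = 0.66) over 6. Whether probes of the Kmt2a row also read the fusion transcript was not tested. Kmt2c, which with Kmt2d marks enhancers, measured 10.93, 10.88 and 11.03 in control and 11.11, 11.09 and 10.48 in Dnmt3b-KO. Its first 2 Dnmt3b-KO arrays lay above all controls and replicate 3 below them, with a difference of 0.16 ± 0.06 over 5 arrays (adjusted p = 0.32) and -0.051 ± 0.18 over 6 (adjusted p = 0.96). The other 5 members of these complexes were Kmt2b, Kmt2d, Setd1a and the shared core subunits Wdr5 and Ash2l. Over 5 arrays they differed by -0.060 to 0.019, with adjusted p from 0.74 to 0.93. On Dnmt3b-KO replicate 3 all 8 members lay below every control, as did 36.4% of all genes and 55.7% of genes above the median gene. Among the 8 was Ash2l, at 10.45 against 11.30 to 11.42 on the other 5 arrays.

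DOT1L and its elongation partners did not move together. Dot1l measured 9.67, 9.47 and 9.56 in control and 9.25, 9.46 and 9.13 in Dnmt3b-KO. The groups stayed apart by a narrow margin, between 9.46 and 9.47. The difference was -0.21 ± 0.09 (SE; limma, adjusted p = 0.35) over 5 arrays and -0.29 ± 0.11 (adjusted p = 0.75) over 6. Mllt3, which encodes AF9, a YEATS-domain reader and the partner in the fusion, measured 5.43, 5.46 and 5.46 in control and 5.28, 5.36 and 6.30 in Dnmt3b-KO. The first 2 Dnmt3b-KO arrays lay below the controls and replicate 3 above them. The difference was -0.13 ± 0.06 (adjusted p = 0.32) over 5 arrays and 0.19 ± 0.28 (adjusted p = 0.88) over 6. Aside from replicate 3, its values were below 5.62, the highest background probe set on the arrays, so a change of this gene can be understated. Aff4, a scaffold of the super elongation complex, measured 10.13, 10.07 and 9.99 in control and 9.87, 10.01 and 11.32 in Dnmt3b-KO. Replicate 1 lay below the controls, replicate 2 among them and replicate 3 far above, with differences of -0.12 ± 0.07 (adjusted p = 0.50) and 0.34 ± 0.39 (adjusted p = 0.85). Aff1, another scaffold of the complex and itself an MLL fusion partner, and Mllt1 (ENL), the paralogue of AF9, differed over 5 arrays by 0.032 and -0.13. On replicate 3 both were lower than the mean of replicates 1 and 2, Aff1 by -0.68 and Mllt1 by -0.52.

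**Figure D3:**
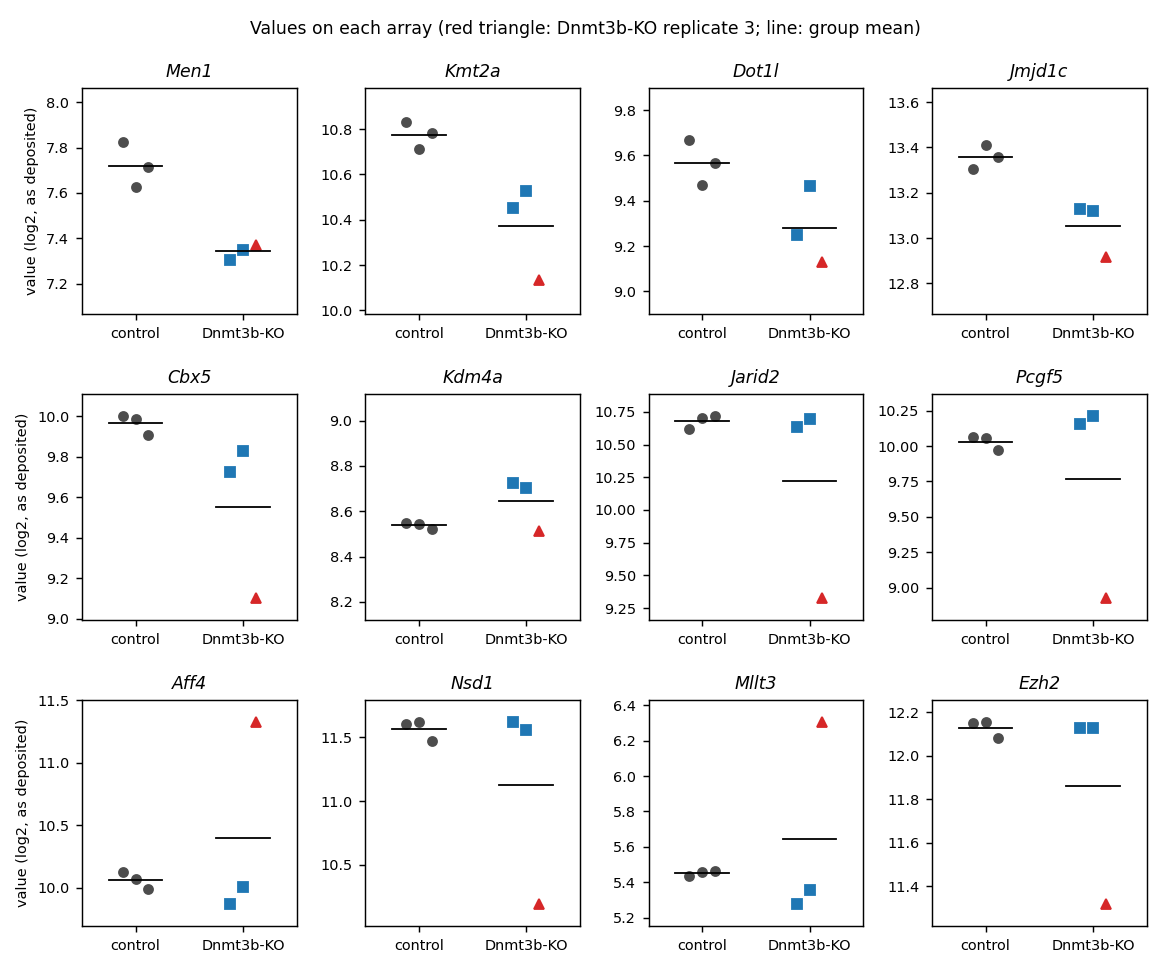
Values on each array (y axis, log2 as deposited, own range per panel and at least 1 unit tall) for 12 regulators in control (circles) and Dnmt3b-KO (squares; red triangle, replicate 3), with a line at each group mean. Men1, Kmt2a, Dot1l, Jmjd1c and Cbx5 show all Dnmt3b-KO arrays below the controls; Aff4 and Mllt3 are higher on replicate 3, and Jarid2, Pcgf5, Nsd1 and Ezh2 lower.

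PRC2 was close to control on Dnmt3b-KO replicates 1 and 2. The catalytic subunit Ezh2 measured 12.13 on both and 11.32 on replicate 3, against 12.15, 12.15 and 12.08 in control, and the 95% interval of its difference over 5 arrays was -0.13 to 0.13 (limma, adjusted p = 1.00). Over 6 arrays the Ezh2 difference was -0.27 ± 0.23 (adjusted p = 0.83). Ezh1, the alternative catalytic subunit, measured 10.72, 10.59 and 10.66 in control and 10.76, 10.78 and 10.51 in Dnmt3b-KO. The first 2 Dnmt3b-KO arrays lay above all controls and replicate 3 below, and the difference was 0.11 ± 0.06 (adjusted p = 0.48) over 5 arrays and 0.025 ± 0.09 (0.96) over 6. The other core subunits, Eed, which binds the methylated product, and Suz12, differed by 0.0049 and 0.037 over 5 arrays. All 3 accessory subunits, which help direct PRC2 to its targets, were lower on replicate 3. Jarid2 measured 10.62, 10.70 and 10.72 in control, 10.64 and 10.69 on replicates 1 and 2, and 9.33 on replicate 3. Its 5-array difference was -0.015 ± 0.06 (adjusted p = 0.95), and with replicate 3 it became -0.46 ± 0.37 (adjusted p = 0.83). Mtf2 and Phf19 differed over 5 arrays by -0.031 and 0.044, and replicate 3 was lower than the mean of replicates 1 and 2 by -0.90 and -0.63. Replicate 3 was likewise lower by -0.81 for Ezh2 and by -0.36 for Suz12, but higher by 0.16 for Eed.

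PRC1 members were spread around 0, with 4 of 11 above and 7 below over 5 arrays. Pcgf5, which defines one variant PRC1, measured 10.06, 10.06 and 9.97 in control and 10.15, 10.21 and 8.93 in Dnmt3b-KO. Again replicates 1 and 2 lay above the controls and replicate 3 far below, so that the difference was 0.15 ± 0.06 (limma, adjusted p = 0.30) over 5 arrays and -0.27 ± 0.35 (adjusted p = 0.87) over 6. The catalytic ubiquitin ligases Ring1 and Rnf2 (RING1B) were both lower on replicates 1 and 2 than in any control. Ring1 measured 6.07, 6.22 and 6.15 in control and 6.03, 6.06 and 5.72 in Dnmt3b-KO, a difference of -0.10 ± 0.06 (adjusted p = 0.55) over 5 arrays and -0.21 ± 0.11 (0.83) over 6. Rnf2 measured 10.997, 11.006 and 11.07 in control and 10.92, 10.88 and 11.07 in Dnmt3b-KO, a difference of -0.12 ± 0.06 (adjusted p = 0.38) over 5 arrays and -0.067 ± 0.07 (0.84) over 6. On replicate 3 Ring1 was lower still, while Rnf2 was within the control values.

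Kdm2b, a CpG-island binding protein that recruits variant PRC1 and also carries demethylase activity, measured 7.04, 7.15 and 7.10 in control and 6.95, 7.04 and 6.55 in Dnmt3b-KO. The replicate 2 value overlapped with control replicate 1, and the difference was -0.10 ± 0.06 (limma, adjusted p = 0.55) over 5 arrays and -0.25 ± 0.14 (0.83) over 6. Of the chromodomain readers, Cbx7 measured 5.25, 5.29 and 5.33 in control and 5.40, 5.36 and 5.45 in Dnmt3b-KO. It was 1 of 2 members higher on all 3 Dnmt3b-KO arrays than in any control, by 0.082 ± 0.06 over 5 arrays and 0.11 ± 0.06 over 6 (adjusted p = 0.58 and 0.83), at a level below the highest background probe set. Cbx8 measured 6.05, 5.94 and 5.80 in control and 6.03, 5.99 and 5.57 in Dnmt3b-KO, and its replicates 1 and 2 lay among the controls (0.077 ± 0.08, adjusted p = 0.75, over 5 arrays and -0.070 ± 0.14, adjusted p = 0.92, over 6). The other 5 PRC1 members, Bmi1, Pcgf1, Cbx2 and the polyhomeotic subunits Phc1 and Phc2, differed by -0.058 to 0.020 over 5 arrays. Asxl1, the partner of the deubiquitinase BAP1 that removes the PRC1 mark, measured 9.84, 9.85 and 9.96 in control and 9.997, 9.97 and 9.69 in Dnmt3b-KO. It too was above the controls on replicates 1 and 2 and below them on replicate 3 (0.10 ± 0.06, adjusted p = 0.52, over 5 arrays and 0.0063 ± 0.10, adjusted p = 0.99, over 6).

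Writers of methylated lysine 36 of histone H3 make the mark that DNMT3B reads. They were near or slightly above control on 2 Dnmt3b-KO arrays and low on the third. Setd2, which makes the trimethylated form, measured 12.35, 12.37 and 12.25 in control and 12.44, 12.43 and 11.90 in Dnmt3b-KO. Its replicates 1 and 2 lay above all controls and replicate 3 below them. Nsd1, which makes the dimethylated form, measured 11.60, 11.62 and 11.47 in control and 11.62, 11.56 and 10.20 in Dnmt3b-KO. The 5-array differences were 0.11 ± 0.06 for Setd2 and 0.025 ± 0.07 for Nsd1 (limma, adjusted p = 0.48 and 0.92). Over 6 arrays they were -0.066 ± 0.16 for Setd2 and -0.44 ± 0.39 for Nsd1 (adjusted p = 0.93 and 0.83). Nsd1 had the largest fall-off of all 46 on replicate 3, at -1.39 from the mean of replicates 1 and 2.

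Among the H3 lysine 9 writers and the reader HP1, only Cbx5 kept the groups apart over 6 arrays. Cbx5, which encodes HP1 alpha, measured 10.0002, 9.99 and 9.91 in control and 9.72, 9.83 and 9.10 in Dnmt3b-KO. Every Dnmt3b-KO value was below every control, with replicate 3 lowest by a wide margin. The difference was -0.19 ± 0.06 (SE; limma, adjusted p = 0.22) over 5 arrays and -0.41 ± 0.20 (adjusted p = 0.82) over 6. The 4 measured methyltransferases, Ehmt1 (GLP), Ehmt2 (G9a), Setdb1 and Suv39h2, differed by -0.063 to 0.039 over 5 arrays, and replicate 3 departed from the mean of replicates 1 and 2 by -0.38 to 0.095.

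Histone demethylases showed small differences in both directions. Jmjd1c, a JmjC-domain gene that mouse MLL-AF9 leukaemia cells depend on, measured 13.31, 13.41 and 13.36 in control and 13.13, 13.12 and 12.92 in Dnmt3b-KO. All 3 Dnmt3b-KO arrays were below all controls, and the difference was -0.23 ± 0.06 (SE; limma, adjusted p = 0.13; 95% interval -0.37 to -0.093) over 5 arrays and -0.30 ± 0.08 (adjusted p = 0.65) over 6. Kdm4a, which acts on methylated lysines 9 and 36 of histone H3, measured 8.55, 8.54 and 8.52 in control and 8.72, 8.70 and 8.51 in Dnmt3b-KO. It had the highest positive difference over 5 arrays, 0.18 ± 0.05 (adjusted p = 0.17), but replicate 3 was just below the controls and the 6-array difference was 0.11 ± 0.07 (0.83). Its relative Kdm4c measured 9.97, 9.84 and 9.64 in control and 9.93, 9.92 and 9.36 in Dnmt3b-KO, so that replicates 1 and 2 lay among the controls. The Kdm4c difference was 0.11 ± 0.10 (adjusted p = 0.70) over 5 arrays and -0.078 ± 0.18 (0.93) over 6. Kdm5a, a demethylase of lysine 4, measured 10.30, 10.33 and 10.25 in control and 10.35, 10.41 and 10.48 in Dnmt3b-KO. With Cbx7 it was the other member above all controls on every Dnmt3b-KO array, by 0.090 ± 0.06 over 5 arrays and 0.12 ± 0.06 over 6 (adjusted p = 0.55 and 0.82). Kdm1a (LSD1), Kdm5b and Kdm6b, which removes the PRC2 mark, differed by -0.082 to 0.057 over 5 arrays. On replicate 3 Kdm1a was higher than replicates 1 and 2 by 0.49 and Kdm6b lower by -0.80.

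Counted over the whole list, Dnmt3b-KO replicates 1 and 2 lay wholly below control for 8 of 46 regulators (17.4%, the same as the 17.4% of all genes) and wholly above for 8 (17.4%, against 15.1%). With replicate 3 included, 6 lay wholly below (13.0%, against 8.21%), namely Men1, Kmt2a, Dot1l, Jmjd1c, Cbx5 and Ring1, and 2 wholly above (4.35%, against 6.68%). The 5-array shares lie close to those of all genes, and no test was made of the 6-array ones. The 6-array shares were not taken among genes above the median gene, where all 46 lie. Replicate 3 was lower than the mean of replicates 1 and 2 for 63.7% of such genes, against 46.5% of all genes. Some markers of mast cells, eosinophils and erythroid cells were lower on the same Dnmt3b-KO arrays. Also wholly below control over 6 arrays were 3 of 15 proliferation genes. The progenitor (Cd34), stromal (Pecam1) and monocyte and macrophage (Apoe) lists had 1 such marker each. T and NK cell and B cell lists had 0. Of their measured markers 0 of 7 and 1 of 4 had a mean above the median gene, so most could hardly fall. The same holds for the stromal list, where Pecam1 was the 1 of 6 with a mean above the median gene. Wholly above control over 6 arrays were Itgam and Ptprc of the progenitor list. Cd14 of the monocyte and macrophage list and Cd3d of the T and NK cell list were so too. The mast cell and basophil marker Cpa3 measured 12.75 to 13.07 in control and 9.43, 10.13 and 6.91 in Dnmt3b-KO, and 4 of 7 markers of that list lay wholly below control. Mcpt8, of the same list, went the other way on replicates 1 and 2: it measured 9.87, 9.88 and 10.37 in control and 10.86, 10.50 and 8.80 in Dnmt3b-KO (0.64 ± 0.18, limma adjusted p = 0.17, over 5 arrays). The mean over the list was 7.67 to 7.78 in control, 6.80 to 7.04 on Dnmt3b-KO replicates 1 and 2, and 5.89 on replicate 3. For 3 of 3 eosinophil markers and 3 of 4 erythroid markers the Dnmt3b-KO arrays also lay wholly below control. Among these, Il5ra (3.62 to 3.81) and Epor (4.24 to 4.36) were below the median gene on every array. The part of the marker cell types in the values of the 6 regulators was not tested. In bulk RNA fewer cells of a type cannot be told apart from less RNA per cell.

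Dnmt3b-KO replicate 3 was described apart, with no test since it is 1 array. It was lower than the mean of replicates 1 and 2 for 33 of 46 regulators (71.7%), where the share was 46.5% over all genes and 63.7% over genes above the median gene. Set against the controls, it lay below all 3 for 33 of 46 (71.7%, against 36.4% of all genes and 55.7% of genes above the median) and above all 3 for 10 (21.7%, against 39.0% and 29.5%). At a distance of at least 0.5, 16 were lower (34.8%, against 11.9% of all genes and 23.3% of genes above the median) and 2 higher, Aff4 and Mllt3 (4.35%, against 9.03% and 13.1%). At least 1 away were 4 of 46 (8.70%, against 6.97% and 12.4%): Nsd1, Jarid2 and Pcgf5 below and Aff4 above. Just inside and outside that limit were Pcgf5 at -1.25, Mllt3 at 0.99 and Ash2l at -0.91. For comparison, replicates 1 and 2 differed from each other by at most 0.21 for any of the 46. The median deviation of the regulators was -0.33, against -0.15 over genes above the median gene and 0.021 over all genes.

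**Figure D4:**
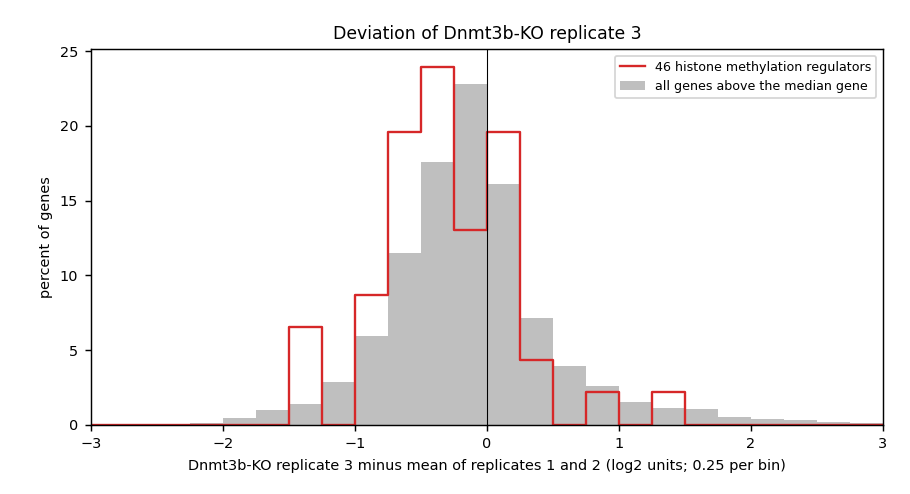
Distribution of the value on Dnmt3b-KO replicate 3 minus the mean of replicates 1 and 2 (x axis, log2 units, bins of 0.25; shown from -3 to 3) for the 46 regulators (red line) and for the 15071 genes above the median gene (grey bars), each as a percent of its own set. Both lie mainly below 0, with medians of -0.33 and -0.15.

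The same array had higher values for monocyte and macrophage genes and lower ones for proliferation and most progenitor genes. Of 13 measured monocyte and macrophage markers, 13 were higher than on replicates 1 and 2 and 10 by at least 1, with a list mean of 11.12 against 7.08 to 7.32 on the other 5 arrays. Csf1r measured 12.97 there and 7.90 to 8.64 elsewhere, whereas C1qa at 4.84 stayed near the median gene. All 15 measured proliferation genes were lower, 13 by at least 0.5, with a list mean of 12.55 against 13.24 to 13.38 on the other arrays. Of the 10 myeloid progenitor markers 8 were lower and 7 by at least 0.5, among them Cd34 by -1.74, Kit by -1.699 and Csf3r by -1.69, with a list mean of 12.41 against 12.98 to 13.10. The other 2, Itgam and Ptprc, were higher by 1.49 and 0.89. The part of these lists in the deviation of the regulators was not tested.

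Relatives of the 46 genes in the same pathways were read from a second list of 73, of which 65 were measured. Over 5 arrays 1 of 65 fell, 0 rose and 64 did not pass (limma), where 0.75% of all genes fell and 0.939% rose, and the median difference was -0.019. Over 6 arrays 0 passed and 3 of 65 had an unadjusted p under 0.05, where 6.37% of all genes did. Both counts are near the background. The gene that fell was Ell2, an elongation factor of the super elongation complex that also holds AFF4. Ell2 measured 7.70, 7.72 and 7.61 in control and 7.16, 7.30 and 10.38 in Dnmt3b-KO. The first 2 Dnmt3b-KO arrays lay below the controls by -0.45 ± 0.07 (SE; adjusted p = 0.043), while replicate 3 lay far above them, and over 6 arrays the difference was 0.60 ± 0.87 (adjusted p = 0.88). The 5-array call was lost in 9 of 15 alternatives, among them each one that left out a further array (adjusted p from 0.089 to 0.25) and centring of the arrays (0.051).

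In each other list the relative with the smallest p did not pass. Pcgf3, which defines another variant PRC1, measured 9.84, 9.82 and 9.80 in control and 9.43, 9.57 and 9.44 in Dnmt3b-KO, with replicate 3 in the same place as the rest. Its difference was -0.32 ± 0.06 (limma, adjusted p = 0.077) over 5 arrays and -0.34 ± 0.06 (0.57) over 6. Epop, a PRC2-associated protein, measured 5.97, 6.14 and 6.06 in control and 5.63, 5.76 and 5.15 in Dnmt3b-KO (-0.36 ± 0.08, adjusted p = 0.088, over 5 arrays and -0.54 ± 0.17, adjusted p = 0.70, over 6). Its value on replicate 3 was below 5.62, the highest background probe set, and that on replicate 1 just above it. Psip1 (LEDGF), which joins menin and KMT2A at chromatin, measured 10.61, 10.64 and 10.47 in control and 10.25, 10.30 and 10.60 in Dnmt3b-KO (-0.30 ± 0.07, adjusted p = 0.12, over 5 arrays and -0.19 ± 0.11, adjusted p = 0.83, over 6). Psip1 thus overlapped with control on replicate 3, where Men1 and Kmt2a did not. Bap1, the deubiquitinase that partners ASXL1, measured 9.14, 9.19 and 9.14 in control and 9.02, 9.07 and 9.05 in Dnmt3b-KO (-0.11 ± 0.05 over both sets of arrays, adjusted p = 0.41 over 5 and 0.82 over 6). Smyd2, a lysine methyltransferase, measured 9.73, 9.79 and 9.84 in control and 9.56, 9.73 and 10.04 in Dnmt3b-KO (-0.14 ± 0.07, adjusted p = 0.43, over 5 and -0.013 ± 0.13, adjusted p = 0.99, over 6). Kmt5a, which monomethylates lysine 20 of histone H4, measured 11.65, 11.67 and 11.80 in control and 11.64, 11.51 and 11.46 in Dnmt3b-KO (-0.13 ± 0.07, adjusted p = 0.49, over 5 and -0.17 ± 0.08, adjusted p = 0.82, over 6). Bap1 and Kmt5a lay below the controls on all 3 Dnmt3b-KO arrays, and Smyd2 on the first 2. Pcgf6 was picked after its values were seen: it measured 8.74 on replicate 3 against 6.13 to 6.59 on the other arrays, a deviation of 2.49 that ran opposite to that of its relative Pcgf5.

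Sex-linked demethylases split the arrays in another way. Kdm5c and Kdm6a, X-linked demethylases of lysines 4 and 27 of histone H3 that are known to escape X inactivation, were lower on all 3 Dnmt3b-KO arrays than in any control. Kdm5c measured 10.69, 10.78 and 10.63 in control and 10.43, 10.43 and 9.92 in Dnmt3b-KO, a difference of -0.27 ± 0.06 (limma, adjusted p = 0.12) over 5 arrays and -0.44 ± 0.15 (0.74) over 6. Kdm6a measured 11.75, 11.83 and 11.77 in control and 11.55, 11.58 and 10.83 in Dnmt3b-KO, a difference of -0.22 ± 0.06 (0.13) over 5 arrays and -0.47 ± 0.21 (0.82) over 6. Their Y-linked paralogues were below the median gene on 5 arrays and above it on replicate 3. Kdm5d measured 4.002, 3.89 and 3.995 in control and 3.93, 3.9999 and 6.88 in Dnmt3b-KO (0.0032 ± 0.06, adjusted p = 0.99, over 5 and 0.97 ± 0.81, adjusted p = 0.83, over 6). Uty measured 4.20, 4.19 and 4.14 in control and 4.14, 4.11 and 7.98 in Dnmt3b-KO (-0.050 ± 0.05, adjusted p = 0.76, over 5 and 1.23 ± 1.07, adjusted p = 0.83, over 6). Replicate 3 was thus the array with the lowest Kdm5c and Kdm6a and the only one of the 6 with Kdm5d and Uty above the median gene. Y-linked transcripts set it apart from the other 5 arrays, and the sex of the mice is not given. Whether sex differed between arrays was not tested, nor was its part in the 6-array differences of Kdm5c and Kdm6a.

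**Figure D5:**
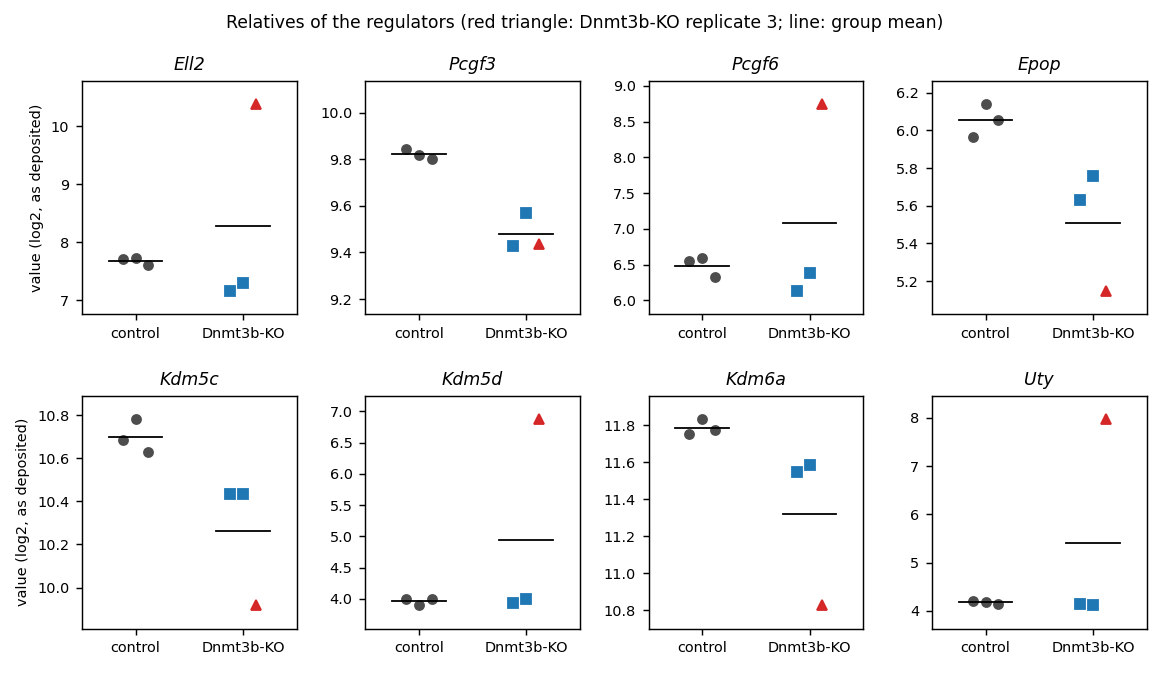
Values on each array (y axis, log2 as deposited, own range per panel) for 8 relatives of the regulators in control (circles) and Dnmt3b-KO (squares; red triangle, replicate 3), with a line at each group mean. Pcgf3, Epop, Kdm5c and Kdm6a are lower on all 3 Dnmt3b-KO arrays than in control, and Ell2, Pcgf6, Kdm5d and Uty are higher on replicate 3.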

How the data were processed

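RNA from sorted leukaemia cells was hybridised to 6 Affymetrix mouse arrays, 3 control and 3 Dnmt3b-KO, grouped by their titles. The deposited values are log2 values made with RMA, per the submitters' processing notes (version not given in the sources used here). Of 72688 rows, 6732 were array controls and 30604 carried exactly 1 gene symbol in the platform annotation; 827 symbols were updated through gene identifiers, and each gene was represented by its row of highest mean, leaving 30142 genes. Rows with several symbols (2146) or none (33206) were not used.

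Groups were compared on the whole table by lmFit and eBayes from limma 3.58.1, run in R 4.3.3, with Benjamini-Hochberg adjustment over all genes and a threshold of 0.05, over 6 arrays and over 5 without Dnmt3b-KO replicate 3. The fit was tested on simulated data drawn with the spread of the 5 arrays without Dnmt3b-KO replicate 3. No simulated array deviated as replicate 3 does, so how the 6-array fit handles such an array was not tested. The members and lists were chosen with earlier results of these data known. Values on every array are printed for the 10 members per direction with the smallest p over 5 arrays, members past the threshold, members at least 1 from the mean of replicates 1 and 2 on replicate 3, the relative with the smallest p per list, relatives past the threshold, and Kdm5c, Kdm5d, Kdm6a and Uty; Ezh2, Pcgf6 and the single marker genes named were chosen after their values were seen. The deviations of same-numbered arrays from their group means correlated at 0.13, 0.033 and 0.11. Replicate 3 enters the Dnmt3b-KO mean, and differently numbered arrays are not given for comparison. These values thus cannot show whether the numbers are pairs, and the main fits did not take them as such. Figures were drawn with matplotlib. The number of arrays limits the precision.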

Additional observations from a re-analysis of the deposited data

How the results depend on the processing

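Counting genes with identical values once (394 genes over 5 arrays) was an alternative chosen after seeing the data. Over 6 arrays the count of regulators past the threshold was 0 under every alternative run; that of all genes was 103 with array weights and 0 to 509 with 1 array left out, where only leaving out Dnmt3b-KO replicate 3 gave a count above 0, and that of relatives 0 to 1 with 1 array left out. Over 5 arrays the 0 regulators became 1 (Men1) among genes above the median gene and 1 (Men1) after repeated quantile normalization, and 2 (Men1 and Kmt2a) at an adjusted p under 0.1; it stayed 0 with any 1 array left out. The 509 genes became 1003 above the median gene, 1148 at an adjusted p under 0.1, 0 without empirical Bayes and 13 to 262 with 1 more array left out. Their count after repeated quantile normalization is not given here. The 1 relative became 0 with arrays centred, with variance trend and robust fitting, without empirical Bayes and with any 1 array left out, and 3 above the median gene and at an adjusted p under 0.1. With the replicate number as a block, 96 genes, 0 regulators and 0 relatives passed over 5 arrays and 0 of each over 6. The filter tests fewer genes; for the rest, the cause was not tested. The 4 regulators at least 1 away on replicate 3 were 4 to 5 with 1 array left out. Other values of replicate 3 moved with the scaling of the arrays. After repeated quantile normalization 33 regulators were lower than the mean of replicates 1 and 2, 14 lower and 3 higher by at least 0.5, with a median of -0.25. With arrays centred, 37 were lower, 19 lower and 2 higher by at least 0.5, with a median of -0.42. The median over all genes became -0.043 and -0.070.

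None of the sign changes among named regulators involved a call. With array weights over 6 arrays, where replicate 3 had a weight of 0.11 against 1.26 to 2.17, the sign turned for Pcgf5 (0.12), Cbx8 (0.054), Kmt2c (0.13), Mllt3 (-0.093), Aff4 (-0.065), Setd2 (0.093) and Kdm4c (0.085). Centring turned Asxl1 (-0.011) over 6 arrays, and the replicate block turned Jarid2 (0.0027) and Nsd1 (-0.022) over 5. Leaving out 1 of 6 arrays gave ranges across 0 for Pcgf5 (-0.49 to 0.15), Cbx8 (-0.15 to 0.077), Kmt2c (-0.16 to 0.16), Mllt3 (-0.13 to 0.38), Aff4 (-0.12 to 0.60), Setd2 (-0.16 to 0.11), Kdm4c (-0.18 to 0.11), Nsd1 (-0.68 to 0.025), Asxl1 (-0.048 to 0.10) and Ezh1 (-0.024 to 0.11). Leaving out 1 of 5 did so for Jarid2 (-0.044 to 0.012) and Nsd1 (-0.022 to 0.053). Men1, Kmt2a, Jmjd1c, Dot1l and Cbx5 stayed below 0 in every alternative run over 5 and over 6 arrays.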
